A study of Mus musculus with 20 samples.

Results

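Gata4 and Gata6 encode zinc finger transcription factors of the GATA family. Both were followed through 20 single cells of the mouse inner cell mass, by every probe set whose platform annotation named 1 of them: 2 probe sets for Gata4 and 3 for Gata6, that is 2 genes of the 18193 that the array named. The cells came from C57BL/6 blastocysts at embryonic day 3.5, carried no treatment or engineered allele, and formed a single group. Per the series design, 55 cells were picked after trypsin dissociation, and a PCR screen kept the 50 that had Oct4 and lacked Cdx2. The cDNA of each cell was amplified by PCR before labelling, and each of the 20 arrays held 1 cell. The labels tie no cell to an embryo, sex or litter, and no cell was measured more than once, so the values below describe these 20 cells and carry no test.

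GATA factors bind a short DNA element with GATA at its core and switch on genes of the extraembryonic endoderm. In the late blastocyst the inner cell mass holds precursors of the epiblast, which keep Nanog, and of the primitive endoderm, which keep Gata6 and gain Gata4 and Sox17. FGF4 made by epiblast precursors acts through FGF receptors and the ERK cascade to favour Gata6 over Nanog, and Gata6 is known to act ahead of Gata4. Here there was 1 time point, so the overlap of detection between genes was measured and their order in time was not.

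Levels are given as log2 of the quantile-normalised probe set intensity plus a pseudocount of 8.77, on which the lowest possible value is 3.29. A gene was called above the floor of a cell when it exceeded the 95th percentile of 174 probe sets for genes of unrelated tissues on the same array, a floor between 6.42 and 7.01. Between 6948 and 8172 genes per cell lay above the floor, and the unnormalised median intensity ran from 25.6 to 30.2 except in cell 19, where it was 15.005. Oct4 (Pou5f1), the factor of the screen, was above the floor in all 20 cells. Cdx2, for which the cells had been screened negative, was read above the floor in 20 of 20 cells as well, over a narrow range from 6.81 to 8.26.

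Gata6 was above the floor in 14 of the 20 cells by its brightest probe set (1425464_at), and its levels formed a wide ladder from the lowest possible value to nearly 12. The 10 highest cells read 10.63 in cell 6, 11.10 in cell 4, 11.47 in cell 5, 11.54 in cell 20, 11.65 in cell 10, 11.74 in cell 15, 11.75 in cell 3, 11.81 in cell 11, 11.88 in cell 17 and 11.89 in cell 8. Below them stood 9.67 in cell 12, 9.60 in cell 2, 7.93 in cell 16 and 7.31 in cell 13, the last against a floor of 6.68 on its own array. The remaining cells read 6.53 in cell 7, 6.13 in cell 18, 6.01 in cell 14, 4.74 in cell 1, 3.58 in cell 19 and 3.29 in cell 9, none above its floor. Cells 7, 18 and 14 therefore lay close under the threshold, with floors of 6.89, 6.55 and 6.53. Cell 13 lay close above it, while the 10 highest cells lay far from it. Since each cell was read on 1 array, the error of a single value, and with it whether neighbours in this order differ, was not measured.

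Gata4 was above the floor in 10 cells by its brighter probe set (1418863_at), and those were the 10 cells with the most Gata6. It read 7.37 in cell 6, 9.16 in cell 10, 9.56 in cell 5, 10.03 in cell 15, 10.07 in cell 3, 10.28 in cell 20, 10.33 in cell 8, 10.37 in cell 11, 10.45 in cell 4 and 10.54 in cell 17. In the other 10 cells Gata4 lay between 3.29 and 5.07, so no cell fell close to the floor from below. Cell 6 was the lowest of the Gata4 cells for both genes.

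**Figure D1:**
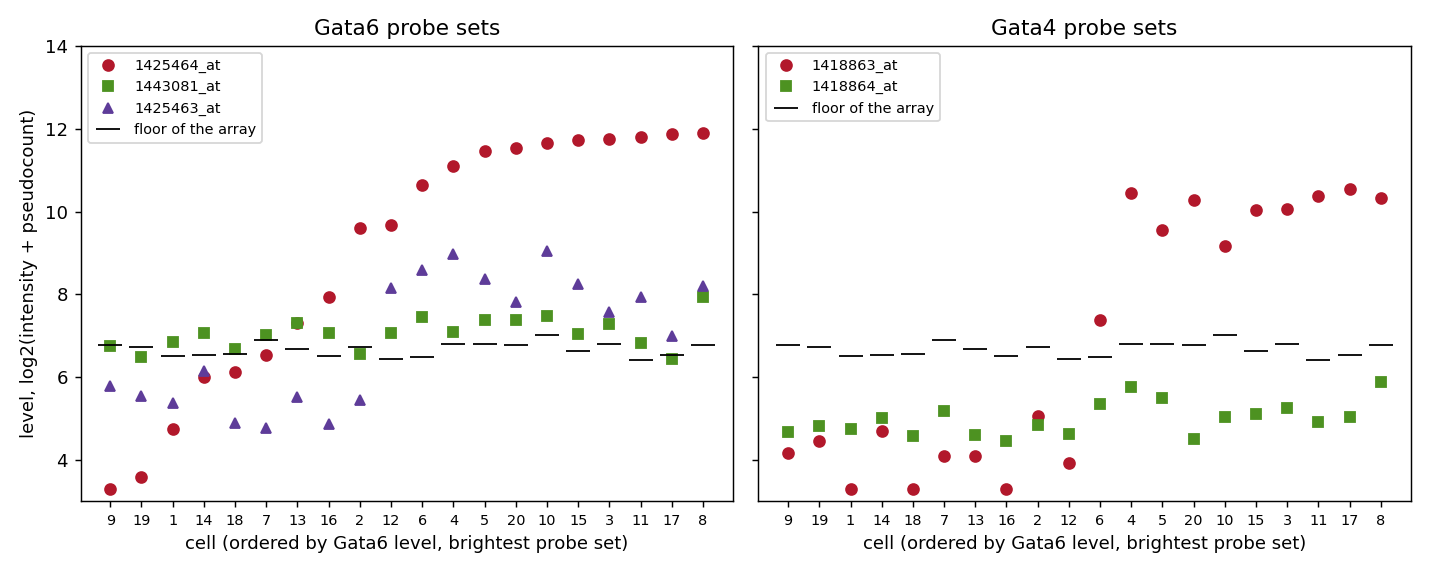
Level of each of the 5 probe sets (log2 scale, vertical axis) in each of the 20 cells (horizontal axis, ordered by the brightest Gata6 probe set), with the floor of each array. The brighter Gata4 probe set leaves the floor in the 10 cells with the highest Gata6, and the other Gata4 probe set stays under the floor in all 20 cells.

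The cells fell into 3 of the 4 possible states: 10 with both factors, 4 with Gata6 alone (cells 2, 12, 13 and 16), 6 with neither and 0 with Gata4 alone. Gata6 averaged 11.55 ± 0.40 (SD, n = 10 cells) where Gata4 was present and 8.62 ± 1.19 (n = 4) where Gata6 was alone. These levels did not overlap, since the highest Gata6 value without Gata4 was 9.67 and the lowest with Gata4 was 10.63. In the cells with neither, Gata6 read 5.05 ± 1.39 (n = 6), a difference from the others that the states themselves set. Gata4 read 9.82 ± 0.96 (n = 10) in the cells with both. With the floor at the 99th percentile of the same probe sets, cell 6 moved to Gata6 alone and cell 13 lost Gata6, which left 9 cells with both, 4 with Gata6 alone and 7 with neither, and again none with Gata4 alone.

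**Figure D2:**
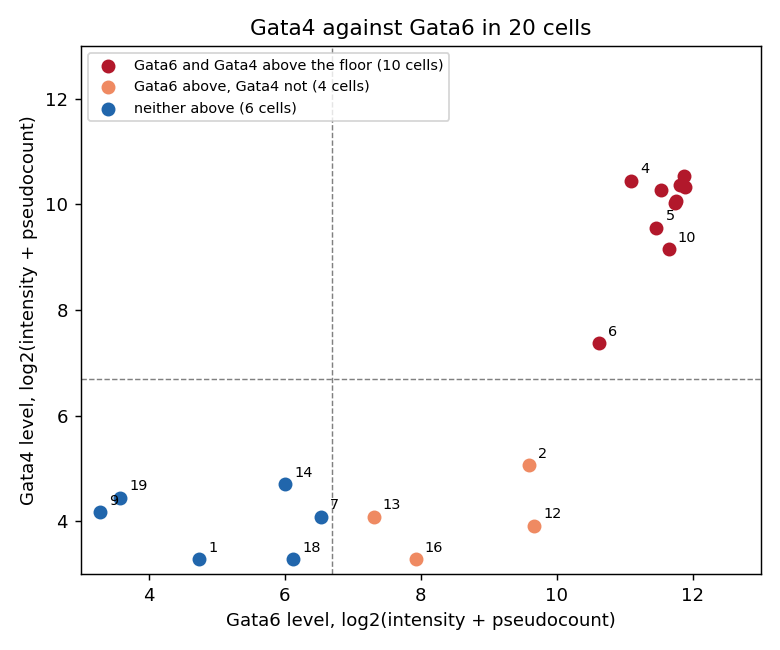
Gata4 (vertical axis) against Gata6 (horizontal axis), each by its brightest probe set on the log2 scale, 1 point per cell, with dashed lines at the common floor of 6.70. The unlabelled points at the upper right are cells 3, 8, 11, 15, 17 and 20; all 10 cells with Gata4 lie to the right of every other cell.

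Over the 20 cells Gata4 and Gata6 had a Spearman's rho of 0.88 and a Pearson's r of 0.89 (n = 20 cells, each point 1 array). For both, values under the floor were tied at the common floor. With those values left as read, rho was 0.803. Within the 10 cells with both, rho was 0.52 and r was 0.74, and without cell 6 they were 0.33 and 0.08. Leaving out cell 4 instead gave a rho of 0.82, so a graded relation among the cells with both factors rests on single cells.

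The probe sets of 1 gene did not all follow the same course. For Gata6, 1425463_at exceeded the floor in 11 cells, the 10 with Gata4 and cell 12 (8.16), and its rho with the brightest probe set was 0.71 (0.579 with the floor at the 99th percentile), with the same side of the floor in 17 of 20 cells. The 3 cells in which they differed, 2, 13 and 16, were read as Gata6-positive by the brightest probe set only. The third Gata6 probe set, 1443081_at, exceeded the floor in 16 cells but moved only from 6.44 to 7.93, near the floor throughout, and its rho was 0.43 with the brightest and 0.66 with 1425463_at. The latter was 0.196 with the floor at the 99th percentile and 0.548 without quantile normalization. For Gata4, probe set 1418864_at stayed between 4.45 and 5.89 and was above the floor in 0 cells, although under the floor its values still had a rho of 0.61 with those of 1418863_at. The class of 4 cells with Gata6 alone therefore depends on the probe set, and by 1425463_at it holds cell 12 alone.

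Other members of the GATA family were mostly not seen. Gata1, Gata3 and Gata5, and the cofactor Zfpm2 (FOG2), were above the floor in 0 cells. Gata2 was read above the floor in 20 cells by 1 probe set, flat between 7.58 and 8.73, and in 1 cell by the other. Zfpm1 (FOG1), a cofactor that binds GATA proteins, came closest to the members, with a rho of 0.56 with Gata6 and 0.54 with Gata4. It exceeded the floor in 8 of the 10 cells with both factors, 3 of the 4 with Gata6 alone and 1 of the 6 with neither, while its other probe set exceeded the floor in 0 cells. Gatad2a, a subunit of the NuRD repressor complex, ran against Gata6 with a rho of -0.65, and had -0.41 with Gata4. Another Gatad2a probe set, also seen in 20 cells, had -0.58 and -0.32. Those of the gene seen in 3, 1 and 4 cells had -0.26, -0.10 and 0.25 with Gata6. The GATA-type repressor Trps1 and the zinc finger genes Gatad1 and Gatad2b had rho between 0.36 and 0.45 with Gata6 by their brightest probe sets. Other probe sets gave lower values: -0.14 to 0.13 for the 3 of Trps1, 0.33 for that of Gatad1, and 0.14 for the one of Gatad2b seen in 11 cells.

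To see which genes shared the pattern, each of the 10340 genes that exceeded the floor in 3 or more cells was set against Gata6 and Gata4 by Spearman's rho, with values under the floor tied at the common floor. A gene was said to track a factor at a rho of at least 0.6 and to oppose it at -0.6 or lower. Of the 10339 other genes, 181 tracked Gata6 (1.75%) and 276 opposed it (2.67%), while 229 tracked Gata4 (2.21%) and 304 opposed it (2.94%). The same 132 genes tracked both, which is 72.9% of those of Gata6 and 57.6% of those of Gata4, and 211 opposed both; since the factors share their cells, these overlaps are no independent evidence. The median rho of all measured genes was -0.01 with Gata6 and -0.02 with Gata4.

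**Figure D3:**
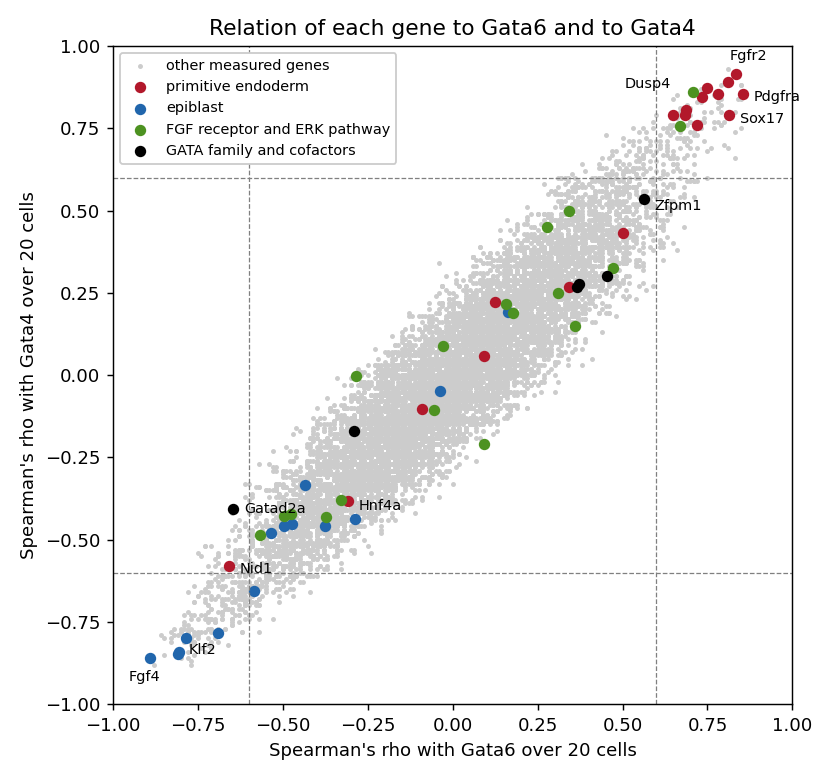
Spearman's rho of each measured gene with Gata6 (horizontal axis) and with Gata4 (vertical axis) over 20 cells, with dashed lines at 0.6 and -0.6 and the gene lists in colour. Pdgfra, Fgfr2 and Sox17 lie at the upper right with most of the primitive endoderm genes, and Fgf4 and Klf2 at the lower left.

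Of the 25 genes on a primitive endoderm list, 18 were measured, and the same 11 tracked Gata6 and Gata4: Sox17, Pdgfra, Cubn, Fgfr2, Aqp8, Lama1, Lamb1, Lamc1, Col4a1, Col4a2 and Sparc. Of all genes, 1.75% tracked Gata6 and 2.21% tracked Gata4. The list's median rho was 0.69 with Gata6 and 0.79 with Gata4. The list was chosen with earlier results of these cells known, so its direction is not independent evidence. Foxa2 was above the floor in 2 cells, Amn and Bmp2 in 1 each, and Dab2, Ttr and Afp in 0.

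The transcription factor Sox17 had the pattern of Gata4 plus 1 cell. It exceeded the floor in 10 of 10 cells with both factors, from 10.08 to 12.37 with a median of 11.77, in 0 of 4 with Gata6 alone, from 4.98 to 5.64, and in 1 of 6 with neither, cell 1 at 9.36. Its rho was 0.81 with Gata6 and 0.79 with Gata4. Cell 1 read 4.74 for Gata6 and 3.29 for Gata4, so Sox17 was present there with neither factor above the floor. Sox7, its relative, was above the floor in 4 cells and only barely, with a highest value of 6.82. Hnf4a, a nuclear receptor of the later visceral endoderm, was above the floor in 16 cells in all 3 states and had a rho of -0.31 with Gata6 and -0.38 with Gata4.

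Pdgfra, the receptor for platelet-derived growth factor on primitive endoderm precursors, was second only to Gata4 in its likeness to Gata6 (rho 0.86). It ran from 11.76 to 12.49 in the 10 cells with both factors, and exceeded the floor in 2 of 4 cells with Gata6 alone (cells 2 and 12, at 10.20 and 10.21) and in 3 of 6 with neither, at up to 9.78. Its levels in the cells with Gata4 did not overlap those elsewhere. Its other probe sets had a rho of 0.78 and 0.71 with Gata6. Cubn, an endocytic receptor, was above the floor in all 10 cells with both factors, from 9.10 to 12.22, and outside them only in cell 13, at 9.94. Aqp8, a water channel, was above the floor in 9 of the 10 cells and outside them only in cell 16, at 9.44.

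Of the list's basement membrane genes, Lama1, Col4a1 and Col4a2 were absent from some cells and the others were seen in every cell. Lama1, a laminin chain, had 10.27 to 12.74 in the cells with both factors. It had 3.29 to 9.05 in those with neither, where it was above the floor in 2 of 6. With Gata6 alone it had 3.92 to 11.16 and was above the floor in 3 of 4, so its levels overlapped those with both. Lamb1 and Lamc1, its partner chains, and Sparc, a collagen-binding matrix protein, were above the floor in all 20 cells, with a rho of 0.75, 0.69 and 0.68 with Gata6 and of 0.87, 0.81 and 0.79 with Gata4. The type IV collagens Col4a1 and Col4a2 were above the floor in all 10 cells with both factors, and in 5 and 3 of the 6 with neither. Nid1, a linker of laminin and collagen, ran the other way, with a rho of -0.66 with Gata6 and 9.29 to 11.43 in the cells with both against 11.20 to 11.72 in those with neither. Of the other list members, Cited1 had a rho of 0.34 with Gata6, Lrp2 of 0.12, Fst of 0.09 and Apoe of -0.09.

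A gene seen in 3 to 17 cells was called nested within a factor when every cell in which it was above the floor also had that factor. Of 5579 such genes, 462 were nested within Gata6 (8.28%) and 122 within Gata4 (2.19%). Every cell with Gata4 also had Gata6, so any gene nested within Gata4 was nested within Gata6 too. The Gata6 counts in this paragraph could therefore not be the smaller ones. These counts depend on the settings, with 260 and 73 at the 99th percentile floor and 98 and 16 among genes seen in 6 or more cells. Among the primitive endoderm genes, 4 of 13 were nested within Gata6 (Sox7, Cubn, Fgfr2 and Aqp8) and 0 of 13 within Gata4, which became 2 and 1 at the 99th percentile floor. No gene was above the floor in exactly the cells of Gata4 or of Gata6.

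In the FGF and ERK pathway, Fgf4, the ligand, was the mirror image of Gata4. It was above the floor in none of the 10 cells with both factors, where it read 3.29 to 3.80, and in every other cell, at 10.64 to 12.13 with Gata6 alone and 11.40 to 12.21 with neither. Its rho was -0.89 with Gata6 and -0.86 with Gata4, the lowest of all measured genes with Gata6. Fgf4 and Atg16l2, an autophagy gene, were the only 2 genes above the floor in exactly the 10 cells without Gata4. By the brightest Gata6 probe set, the cells with Gata6 alone therefore had Gata6 and Fgf4 together, and by 1425463_at only cell 12 did.

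The receptor Fgfr2 exceeded the floor in 9 of the 10 cells with both factors, 1 with Gata6 alone (cell 12, at 7.43) and 0 with neither. In those 9 cells it lay between 9.67 and 11.61, and in cell 6 it read 4.24. Its rho was 0.84 with Gata6 and 0.91 with Gata4, by 1 probe set, as the others of the gene exceeded the floor in 0 cells. Fgfr1 was above the floor in 19 cells with a rho of 0.09 and -0.21. Fgfr4 stayed between 6.89 and 7.42 with a rho of 0.18 and 0.19.

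Of the 24 genes on the FGF receptor and ERK list, 18 were measured, with a median rho of 0.13 with Gata6 and 0.12 with Gata4. The same 2 tracked both factors, against 1.75% of all genes for Gata6 and 2.21% for Gata4. They were Dusp4, a phosphatase that acts on ERK (rho 0.71 and 0.86), and Spred1, an inhibitor of the cascade (0.67 and 0.76). Each exceeded the floor in 8 of the 10 cells with both factors and in 0 of the other 10, so both were nested within Gata4. Dusp4 was under the floor in cells 6 and 10, and Spred1 in cells 6 and 17. Among other feedback genes and targets, Spry4 was above the floor in 7 of the cells with both and 2 with neither (rho with Gata6 0.34), Dusp6 in 4, 1 and 2 cells of the 3 states (0.16), and Spry2 in 19 cells (0.36). The kinase Map2k2 and the adaptor Grb2 had the lowest rho with Gata6, -0.57 and -0.50.

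Of 16 epiblast genes 14 were measured, with a median rho of -0.52 with Gata6 and -0.47 with Gata4. Of these, 5 opposed Gata6 and 6 opposed Gata4, against 2.67% and 2.94% of all genes. Nanog, the homeodomain factor set against Gata6 in this choice, had a rho of -0.80 with Gata6 and -0.84 with Gata4. It lay between 11.93 and 12.44 in the cells with neither factor, between 11.98 and 12.24 in those with Gata6 alone, and between 3.29 and 11.83 in those with both. Nanog levels with Gata6 alone were thus within the range of the cells with neither, and every cell with Gata4 lay below both. In 8 of the 10 cells with both factors Nanog was still above the floor. Sox2, a partner of Oct4, was likewise above the floor in 8 of these 10 and in all others, with a rho of -0.79 and -0.80. Klf2, a naive pluripotency factor, was above the floor in 4 of the 10 and in all others (-0.81 and -0.85). Gdf3, a ligand of the TGF-beta family, was above the floor in 20 cells (-0.69 and -0.78), and Prdm14, a regulator of the naive state, passed the threshold with Gata4 alone (-0.58 and -0.66). The other measured members had a rho with Gata6 of -0.54 for Esrrb, -0.50 for Enox1, -0.47 for Utf1, -0.44 for Klf4, -0.38 for Otx2, -0.29 for Tdgf1, -0.04 for Bmp4 and 0.16 for Klf5.

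**Figure D4:**
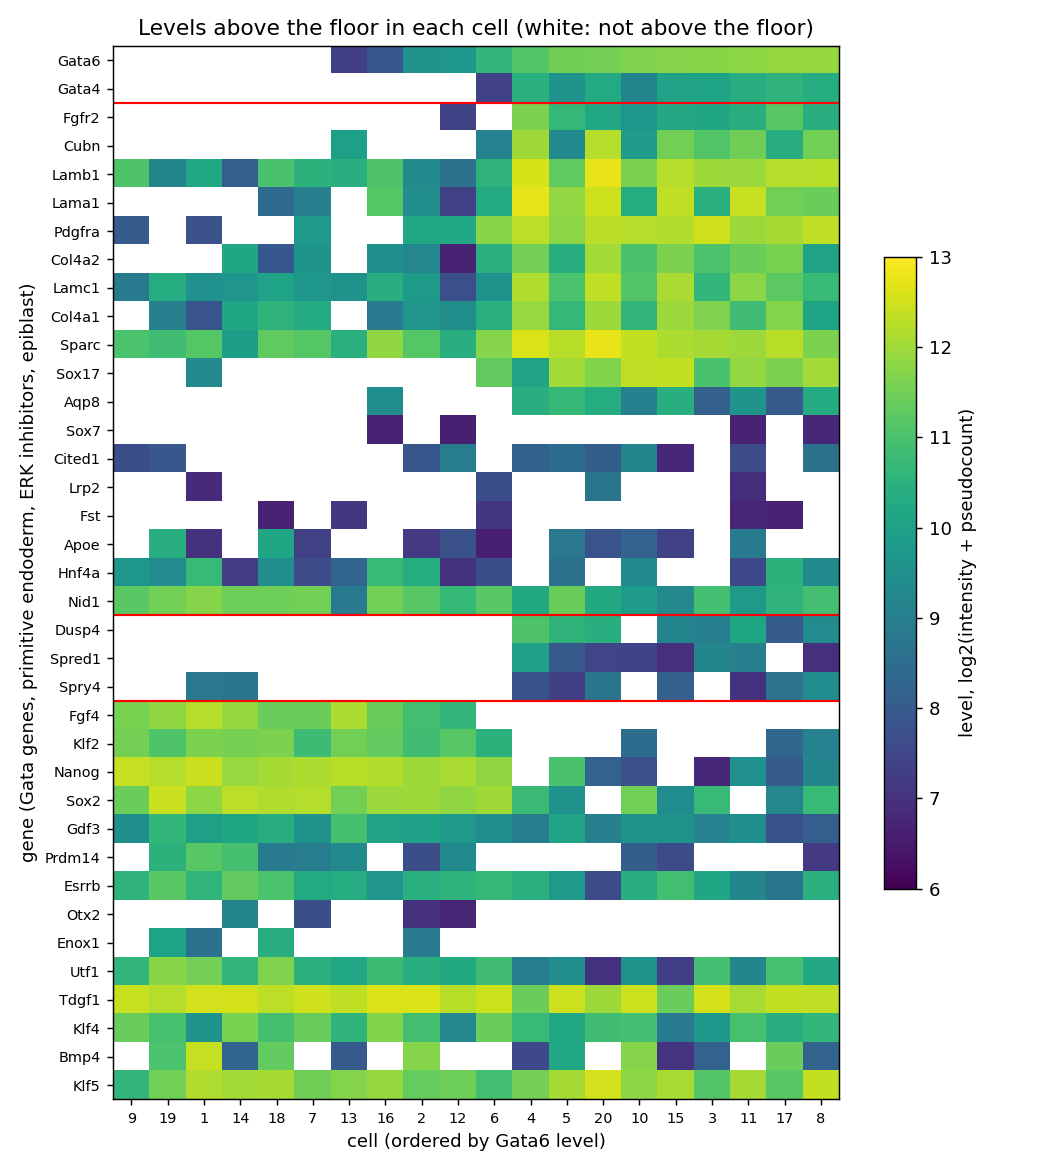
Log2 level (colour) of Gata6, Gata4 and genes of the primitive endoderm, epiblast and FGF and ERK lists (rows) in the 20 cells (columns, ordered by Gata6), with the rows for Dusp4, Spred1 and Spry4 chosen after their values were seen. White marks values not above the floor. Fgf4 is white in the 10 cells with Gata4, and cell 6 holds Sox17 and Pdgfra with Gata4 but lacks Fgfr2, Aqp8 and Dusp4.

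Counted by cell, the number of the 18 primitive endoderm genes above the floor was 12 to 18 with both factors (median 14.5), 7 to 13 with Gata6 alone (10.5) and 7 to 10 with neither (9). The number of the 14 epiblast genes was 7 to 11, 10 to 14 and 10 to 13. Lamb1, Lamc1, Sparc and Nid1 were above the floor in all 20 cells and add to every primitive endoderm count. Klf4, Klf5, Esrrb, Utf1, Tdgf1 and Gdf3 do so for the epiblast counts. Cells with Gata6 alone thus overlapped both other states in primitive endoderm genes, and lay within or just above the cells with neither in epiblast genes.

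Cell 6 differed from the other cells with both factors in some genes, while its counts over whole lists lay within theirs. It had 14 of the 18 measured primitive endoderm genes above the floor, within the 12 to 18 of the 10 cells. That count includes members that did not track the factors. The 11 that did were all above the floor in each of the other 9 cells, whereas cell 6 lacked Fgfr2 and Aqp8. Of the epiblast genes it had 9, within 7 to 11. Sox17 (11.31), Pdgfra (11.76), Lama1 (10.27) and Cubn (9.10) were above its floor, the last 3 at the lowest level of the 10 cells. Not above the floor were Fgfr2 (4.24, against 9.67 to 11.61 in the other 9 cells), Aqp8 (4.85), Dusp4 (4.03), Spred1 (4.72) and Spry4 (3.72). Of the 18 measured FGF receptor and ERK genes, cell 6 nonetheless had 12 above the floor, within the 11 to 14 of the 10 cells. They included Egr1 (7.77), an immediate early gene under the floor in the other 9 cells, Elk1 (7.81), an ERK substrate at its highest of the 10, and Sos1 (9.11). Nanog read 11.83 there, above the highest of the other 9 (10.99), and Sox2 (11.99), Klf2 (10.49) and Klf4 (11.39) were also at their highest of the 10. The other epiblast genes were not at their highest there. Esrrb (10.66) and Tdgf1 (12.47) ranked 9 of the 10 from the lowest, and Utf1 (10.85) ranked 8. Klf5 (10.89) was at its lowest of the 10, and Fgf4, Prdm14, Otx2 and Enox1 were at 3.29. Bmp4 (4.98) was under the floor, and Gdf3 (9.44) lay inside the range of the others. Of the 122 genes nested within Gata4, cell 6 had 25 above the floor, against 32 to 65 in the other 9 cells. It lacked 49 genes that all the other 9 had, fewer than the 51 to 176 that each of those lacked in the same sense. Cell 6 was singled out after its values were seen.

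Within the 10 cells with both factors, the median rho of the primitive endoderm genes was 0.22 with Gata4 and -0.04 with Gata6, against 0.01 and -0.02 for all genes. The FGF receptor and ERK list came close to the former, with 0.21 and 0.05. The GATA family list had 0.14 and 0.23, and the epiblast list -0.29 and -0.05. Nanog had a rho of -0.29 with Gata4 in these cells and -0.03 without cell 6.

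Of all measured genes, those most like Gata6 were Gata4 (rho 0.88), Pdgfra (0.86), and then Dnmt3l, Prkab1, Snx2, Gpat3 and Sdc4 (each 0.85), Phlda1 and Fgfr2 (0.84) and Actr3 (0.83). Dnmt3l, a cofactor of de novo DNA methylation, ran from 8.80 to 11.82 in the cells with both factors, 6.45 to 10.04 with Gata6 alone and 3.29 to 8.97 with neither. Sdc4, a heparan sulfate proteoglycan of the cell surface, had 10.41 to 12.19 with both, 6.19 to 9.99 with Gata6 alone and 3.29 to 6.62 with neither, and was above the floor in 10, 3 and 1 cells. Snx2, a sorting nexin of the endosome, was above the floor everywhere and lay at 12.27 to 12.87 with both and 10.85 to 11.73 with neither. Prkab1, a subunit of AMP-activated kinase, rests on 1 probe set, as the other was seen in 3 cells and had a rho of 0.04. Those with the lowest rho were Fgf4 (-0.89), Ube2s (-0.88), Ccdc107 (-0.86), Kcnj3 and Stk38 (-0.85), Nudt3, Ahcy and Ino80d (-0.83), and Khdc1a and Trim28 (-0.82). Kcnj3 stayed not far above the floor, between 6.81 and 8.28. Ube2s, a ubiquitin-conjugating enzyme of the anaphase-promoting complex, was above the floor in all cells and lay at 10.73 to 12.12 with both factors and 12.34 to 12.61 with neither.

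Gata4 was most like Smco4 (0.93), Fgfr2 (0.91), Cubn and Uap1 (0.89), Snx2, Gata6, Arcn1 and Dnmt3l (0.88), and Lamb1 and Pth1r (0.87). Smco4, a small membrane protein, was above the floor in 9 of the 10 Gata4 cells, all but cell 6, and in 0 others. Pth1r, a receptor for parathyroid hormone and its related peptide, was above the floor in all 10 and in 3 others. For Arcn1, a coatomer subunit, another probe set, seen in 14 cells, had a rho of -0.06 with Gata4. Of the other probe sets of Uap1, an enzyme of amino sugar synthesis, 2 seen in nearly all cells had a rho of 0.86 and 0.87 with Gata4, and the remaining 2 were seen in 2 cells and 0 cells. Genes with the lowest rho were Pttg1ip and Ube2s (-0.88), Ei24 (-0.87), Fgf4, Atg16l2 and Mymx (-0.86), Stk38, Klf2 and Bcl2l14 (-0.85) and Nanog (-0.84).

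Among genes with a rho of at least 0.5 with either, the difference was largest toward Gata6 for Krr1 (0.59 with Gata6, 0.27 with Gata4), then Zfp157, Stk19, Kansl1 and Aco1. Toward Gata4 it was largest for Pgd, an enzyme of the pentose phosphate pathway (0.27 with Gata6, 0.58 with Gata4), then Clic6, Sdccag8, Bag2 and Il16. Apart from Pgd, these genes stayed near the floor. Their highest values were 7.60 for Clic6, 7.01 for Sdccag8, 7.22 for Bag2 and 7.05 for Il16. They were above the floor in 7, 6, 4 and 3 cells. These differences of about 0.3 in rho were picked as the extremes of a list and have no test.

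Promoter windows from 250 bases before to 50 after the start were read from RefSeq (GRCm38.p6) for genes that shared the pattern, to show the sequence around their starts. Pdgfra is shown as the gene most like Gata6 after Gata4, Fgfr2 as the list gene most like Gata4, and Sdc4 as a leading gene of Gata6 with a GATA motif. They lie at chr5:75152001-75152300 (plus strand), chr7:130266759-130267058 (minus strand) and chr2:164443139-164443438 (minus strand), and capitals mark the motif:
Pdgfra: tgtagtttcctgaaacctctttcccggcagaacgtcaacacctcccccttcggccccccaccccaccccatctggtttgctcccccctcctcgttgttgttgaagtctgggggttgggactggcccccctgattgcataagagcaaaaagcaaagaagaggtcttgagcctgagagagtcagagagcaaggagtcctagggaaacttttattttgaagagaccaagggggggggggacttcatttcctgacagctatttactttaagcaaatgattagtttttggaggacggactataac
Fgfr2: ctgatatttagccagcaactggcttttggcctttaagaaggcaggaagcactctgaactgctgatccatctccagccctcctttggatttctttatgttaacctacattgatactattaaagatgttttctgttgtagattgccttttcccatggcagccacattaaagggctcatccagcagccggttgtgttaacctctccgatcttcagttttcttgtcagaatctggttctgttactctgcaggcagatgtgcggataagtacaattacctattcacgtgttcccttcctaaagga
Sdc4: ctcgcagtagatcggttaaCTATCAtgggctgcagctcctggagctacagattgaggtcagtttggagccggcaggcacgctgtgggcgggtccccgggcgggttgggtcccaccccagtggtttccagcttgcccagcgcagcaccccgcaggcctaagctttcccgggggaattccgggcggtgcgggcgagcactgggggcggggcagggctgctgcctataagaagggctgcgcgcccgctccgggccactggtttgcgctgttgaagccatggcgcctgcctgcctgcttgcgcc

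The motif searched was A or T, then GATA, then A or G, on both strands, so the match at base 20 of the Sdc4 window is the reverse complement of a GATA core. Of all 32851 windows of this length, 9778 held the motif (29.8%). Among the 11 primitive endoderm genes that tracked both factors, 8 had a window and 0 of the 8 windows held it. Among the 17 genes most like either factor, 12 had windows, and 2 of their 17 windows held it (11.8%). A match is a run of letters and not a shown binding site, and its absence says only that these letters are not in this window.

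Of 15 trophectoderm genes, 11 were measured and 0 tracked or opposed either factor. So short a list can give 0 at the shares of all genes. Those were 1.75% tracked and 2.67% opposed for Gata6, and 2.21% and 2.94% for Gata4. The median rho of the 11 genes was 0.14 with Gata6 and 0.10 with Gata4. Between 4 and 8 of them were above the floor in the cells with both factors, 6 to 9 with Gata6 alone and 4 to 8 with neither. The highest rho with Gata6 were those of Eomes (0.44, above the floor in 9 cells) and Hand1 (0.36, in 20 cells, flat between 13.58 and 13.78), and the lowest those of Lgals3 (-0.40, in 5 cells) and Tfap2c (-0.38, in 13 cells). The 4 members not measured, Atp12a, Krt19, Krt7 and Elf5, exceeded the floor in 0 cells. The number of all genes above the floor was 6948 to 8100 with both factors, 7606 to 8172 with Gata6 alone and 7245 to 7971 with neither, so the cells with both reached lower counts. Its part in the results above was not tested. The shallow array, cell 19, was a cell with neither factor. Without it, 176 genes tracked and 263 opposed Gata6, 233 and 319 did so for Gata4, and 543 and 137 were nested within Gata6 and Gata4.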

How the data were processed

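The deposited table held linear intensity values per probe set, which ran from 1 to 26616. Per the labels' protocols, cDNA of each lysed cell was amplified by PCR and biotin-labelled by the one-cycle Affymetrix method; the software that summarised and scaled the authors' values is not given in the sources used here. Of 45101 probe sets, 64 were controls, and the platform annotation gave 1 gene to 34958, several to 932 and none to 9147; 34754 matched RefSeq (GRCm38.p6). Only probe sets with 1 gene were named.

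Values were quantile-normalised, and each array's 25th percentile was taken, with the median of these as pseudocount. A gene took its probe set with the highest mean. The steps ran in Python 3.11.15 with numpy 2.4.6, pandas 2.3.3 and matplotlib 3.10.9, and were tested on simulated data. Genes, lists and members were chosen with earlier results of these data known. Named were all probe sets of Gata4 and Gata6, all measured members of the GATA, primitive endoderm and epiblast lists, the 2 highest and 2 lowest members of other lists by rho with Gata6, the 10 highest and 10 lowest genes for each factor, and the 5 largest differences in each direction; any other gene was named after its values were seen. Alternatives covered normalization, pseudocount, floor, probe set, measure of likeness, filter and thresholds. No paired design existed, and doublets were not called, as cells were picked singly.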

Additional observations from a re-analysis of the deposited data

How the results depend on the processing

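Of 271 values under 15 alternative settings, 245 stayed within 0.1 in rho or 1.5 times in a count, 26 moved and 0 changed sign. The probe set mattered most. With Gata4 probe set 1418864_at, 0 cells had Gata4, 0 had both and 14 had Gata6 alone. With Gata6 probe set 1425463_at, 1 cell had Gata6 alone and the rho of Gata4 with Gata6 was 0.69; with 1443081_at, 7 cells had Gata6 alone, 1 had Gata4 alone, 3 had neither, and rho was 0.326. The mean of all probe sets gave a rho of 0.753 and 174 genes that opposed Gata6. With the floor at the 99th percentile, 260 genes were nested within Gata6 and 73 within Gata4, and 2 and 1 of the primitive endoderm genes. Requiring 6 or more cells above the floor left 98 and 16 nested. A rho threshold of 0.7 left 68 genes that tracked and 105 that opposed Gata6, and 107 and 129 for Gata4. Pearson's r put the epiblast median with Gata4 at -0.573, and values left as read put the primitive endoderm median with Gata4 at 0.668. The cause of these shifts was not tested, apart from the smaller number of genes that a stricter threshold or filter admits by construction. Leaving out cell 19, or cell 6 (added after the data were seen), kept these values within the limits above. No paired analysis was possible because the cells form 1 group. The number of arrays and the signal over the floor limit the precision, and a cell's own error was not measured.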

Other observations

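Among the general pluripotency genes, all 9 of 9 were measured, and they did not move as one with Gata6. Tfcp2l1 (rho -0.76) and Zfp42, also called Rex1 (-0.65), opposed it, while Lin28a (0.64) and Tbx3 (0.62) tracked it. Of all genes, 2.67% opposed and 1.75% tracked Gata6. Lin28a, an RNA-binding protein that blocks let-7 maturation, was above the floor in 7 of the 10 cells with both factors and in 0 of the other 10. Pou5f1 had a rho of -0.22 with Gata6, and was above the floor in every cell.

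The genes nested within Gata4 that were seen in the most cells, picked after their values were known, were Emb and Smco4 (9 cells), Dusp4 and Spred1 (8 cells), and Acsbg1, Lin28a, Nr1h4 and Rhpn1 (7 cells). Nr1h4 encodes the bile acid receptor FXR. Cell 6 had Emb, Acsbg1 and Nr1h4 of these and lacked Smco4, Dusp4, Spred1, Lin28a and Rhpn1. Cells with neither factor were not free of primitive endoderm genes: 7 to 10 of the 18 measured were above the floor in each. These counts include Lamb1, Lamc1, Sparc and Nid1, seen in all 20 cells, and Hnf4a, seen in all 6 with neither. Col4a1 was seen in 5 of these 6 cells, Pdgfra in cells 1, 7 and 9, Col4a2 in cells 7, 14 and 18, and Lama1 in cells 7 and 18.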
